A study of Mus musculus with 6 samples.

Results

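The Tfap2 genes encode the AP-2 transcription factors, and open chromatin around the 5 members was described in the embryonic mouse face. Regions were chosen by position alone. All peaks of the 6 libraries were merged wherever they shared at least 1 bp, and a region was given to the gene whose protein-coding start site lay nearest to its strongest summit, within 200 kb. Of 382006 merged regions, 250 were nearest to a member: 54 to Tfap2a, 76 to Tfap2b, 60 to Tfap2c, 49 to Tfap2d and 11 to Tfap2e.

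AP-2 factors bind a GC-rich palindrome as dimers and act early in the surface ectoderm and the neural crest, the migratory cells that build most of the facial skeleton. Tfap2a is required for closure and outgrowth of the face, and its human counterpart is mutated in branchio-oculo-facial syndrome, which includes clefting. Tfap2b acts in neural crest and limb and is mutated in Char syndrome, Tfap2c acts in ectoderm, trophoblast and germ cells, Tfap2d in the midbrain and retina, and Tfap2e in the olfactory system.

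The material was whole tissue of wild-type (WT) mouse embryos at stage E11.5, dissected fresh, with the cell type given as mixed and no treatment. There were 6 bulk ATAC-seq libraries, in which the Tn5 transposase cuts accessible DNA: 2 labelled maxillary process (most of the upper jaw), 2 mandibular process (the lower jaw) and 2 nose (the tissue around the nasal pits). Nothing in the labels tells whether replicates are separate embryos or pools, so p-values measure the spread between these libraries, which may be technical. In such mixed tissue, a change in the share of a cell type and a change within its cells cannot be told apart.

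Each library was deposited as a list of peaks in which every summit has its fold over local background and its −log10 of p and q. The lists held 219779 to 299731 lines, with replicate 1 of the label maxillary process the shortest. The weakest −log10 q was 1.3 in 4 lists, 1.62 in replicate 1 of mandibular process and 2.55 in replicate 2 of maxillary process, so a missing peak does not mean the same in every list. The depth in reads is unknown. The lists of the 4 jaw libraries also carry the abbreviation of the other jaw process in their names. Some markers went with the names rather than the labels. Of 54 regions of Hand2, a gene of the lower jaw, 5 had a peak in both maxillary-labelled libraries and in no mandibular-labelled one. The other way there were 0. Over all regions these patterns made up 3.52% and 5.4%, so the sides were uneven to begin with. Alx1 and Alx4, genes of the frontonasal region, had 0 and 14 of 151. Dlx5 and Dlx6, also genes of the lower jaw, with 15 and 40 regions, together had 2 and 6. Hand1 had 0 and 0 of 31. The lower jaw list as a whole thus had 7 and 6 of 140, and Pou3f3 of the upper jaw had 4 and 4 of 73. Peak strength, compared by limma as described further on, was also mixed: between the jaws 2 regions of Dlx6 were higher in the maxillary-labelled libraries (1.04 ± 0.24 and 1.36 ± 0.34 in normal scores, limma, adjusted p = 0.0235 and 0.0388), while 1 of Hand2 (−1.68 ± 0.45, limma, adjusted p = 0.0491) and 1 of Alx1 (−1.12 ± 0.27, limma, adjusted p = 0.0288) were lower. Promoter peaks of Prrx1 and Twist1 (facial mesenchyme) and of Epcam, Cdh1 and Trp63 (surface epithelium) were listed in all 6 libraries. Groups follow the labels here. Exchanging the jaw labels would turn the direction of each comparison between the jaws and exchange the values against nose, while comparisons of all 4 jaw libraries with nose would stay as they are.

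**Figure D1:**
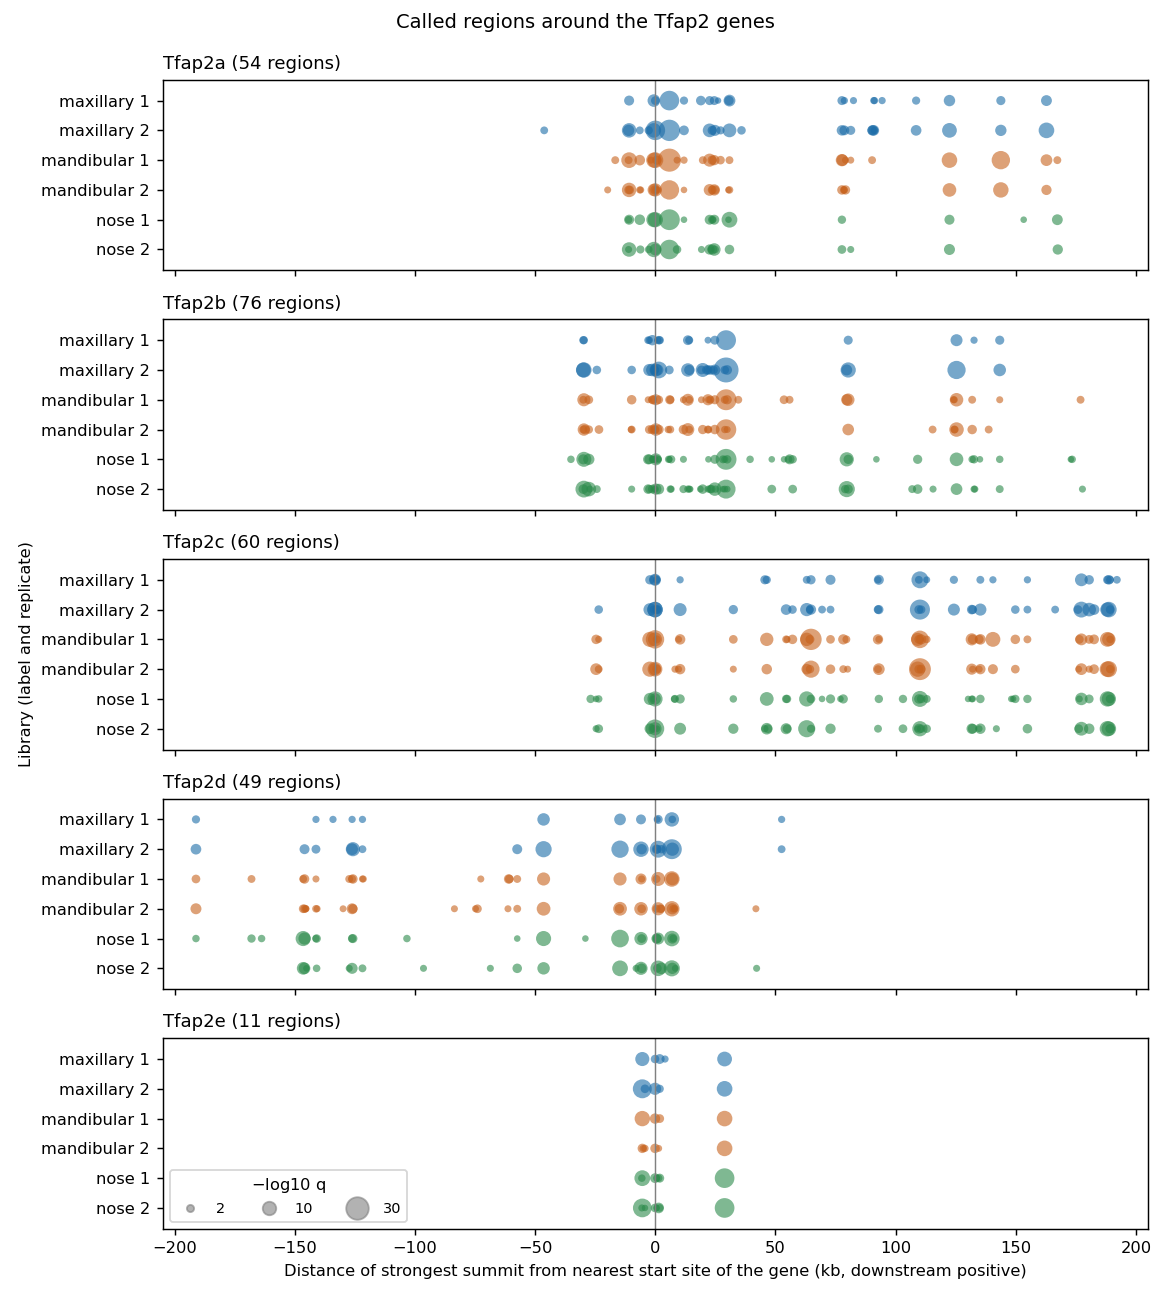
Each circle is a called region at the distance of its strongest summit from the nearest start site of the gene, in kb with downstream positive, in a row for each library, and its area grows with the −log10 q. Tfap2a, Tfap2b and Tfap2c carry most of their regions downstream, Tfap2d upstream, and the 11 regions of Tfap2e lie within 28.8 kb. The fuller side is also the side with the wider gap to the next start site, which the assignment rule favours. At Tfap2e the sides are nearly even, with 5 regions upstream and 6 downstream.

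The members stood in 4 loci. On GRCm38 (mm10), Tfap2a lies on the minus strand at chr13:40715302-40738376, Tfap2c on the plus strand at chr2:172549593-172558622 and Tfap2e on the minus strand at chr4:126716006-126736240. Tfap2d (chr1:19103022-19166346) and Tfap2b (chr1:19208914-19238576) are neighbours on the plus strand, with start sites 106 kb apart. Tfap2a, Tfap2b, Tfap2c and Tfap2d had more regions than 94.2%, 97.7%, 95.4% and 92.9% of the 21827 protein-coding genes, and Tfap2e more than 65.9%. Tfap2c had 53 of its 60 regions downstream, Tfap2b 60 of 76 and Tfap2a 41 of 54, whereas Tfap2d had 36 of 49 upstream, on the side away from Tfap2b. The nearest-start-site rule bounds this layout, because regions closer to a neighbour go to that neighbour. At these 4 genes the side with more regions was also the side with the wider gap to the next start site. Upstream and downstream gaps were 77.1 and 389 kb at Tfap2c and 106 and 1410 kb at Tfap2b. They were 121 and 367 kb at Tfap2a and 838 and 106 kb at Tfap2d. Tfap2e, with 5 regions upstream and 6 downstream, is flanked by start sites of Ncdn 17.2 kb upstream and Psmb2 58.6 kb downstream.

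The distance limit cut the outer regions of 2 genes. The last region kept for Tfap2b lay 177.8 kb out (−log10 q of 1.85 in nose replicate 2 only) and the first left out 201.9 kb out (1.98 in nose replicate 1 only). A further 98 regions were nearest to Tfap2b beyond the limit, in the gap of 1410 kb to Pkhd1, and 13 to Tfap2d. For Tfap2d, the last region kept lay 191.2 kb out with peaks in 5 libraries, and the first left out lay 253.8 kb out with peaks in all 6. Tfap2a, Tfap2c and Tfap2e lost none, and their outermost regions lay at 167.5, 192.1 and 28.84 kb.

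The strongest regions of Tfap2b, Tfap2c, Tfap2d and Tfap2e away from their promoters are shown first, since these stretches had a peak in every library. Each line holds 201 bases of the plus strand of GRCm38 centred on the strongest summit. Capitals mark any match to 7 short motifs, searched on both strands: GCCNNNGGC (AP-2), TAATTA (homeobox), CAGATG (E-box), ACAATG (SOX), TGTTTAC (forkhead), GGAATG (TEAD) and TGANTCA (AP-1). No motif contains another, though matches may overlap.
Tfap2b +29.4 kb, chr1:19241398-19241598: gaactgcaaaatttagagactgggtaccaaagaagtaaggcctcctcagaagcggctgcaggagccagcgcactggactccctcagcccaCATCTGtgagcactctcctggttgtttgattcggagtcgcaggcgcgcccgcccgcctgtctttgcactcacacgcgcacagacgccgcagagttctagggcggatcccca
Tfap2c +110.1 kb, chr2:172661017-172661217: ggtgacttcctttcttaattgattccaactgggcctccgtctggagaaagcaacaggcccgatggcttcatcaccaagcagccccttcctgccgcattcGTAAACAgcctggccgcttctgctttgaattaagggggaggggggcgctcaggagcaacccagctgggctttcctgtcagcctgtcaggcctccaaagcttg
Tfap2d +6.9 kb, chr1:19109800-19110000: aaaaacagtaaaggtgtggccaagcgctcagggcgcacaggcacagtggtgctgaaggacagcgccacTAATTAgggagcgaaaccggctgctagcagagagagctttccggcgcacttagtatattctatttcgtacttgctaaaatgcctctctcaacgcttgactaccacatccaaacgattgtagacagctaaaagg
Tfap2e +28.8 kb, chr4:126707305-126707505: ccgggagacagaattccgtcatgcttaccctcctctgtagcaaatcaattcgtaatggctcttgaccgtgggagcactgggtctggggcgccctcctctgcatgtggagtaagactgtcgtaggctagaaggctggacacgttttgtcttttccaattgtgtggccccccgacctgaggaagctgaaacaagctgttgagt

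The capitals mark an E-box in the Tfap2b window, forkhead letters in the Tfap2c window and a homeobox core in the Tfap2d window. The Tfap2e window matches none of the 7, and none of these 4 holds the AP-2 letters. The strongest member region with those letters near its summit among the regions named for the highest ranks was the Tfap2d region 14.7 kb upstream.
Tfap2d −14.7 kb, chr1:19088246-19088446: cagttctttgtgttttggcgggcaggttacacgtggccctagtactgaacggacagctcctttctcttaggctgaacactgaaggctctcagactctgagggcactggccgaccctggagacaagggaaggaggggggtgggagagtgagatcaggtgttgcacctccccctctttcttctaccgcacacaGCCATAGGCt

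Over all 250 regions, 29 windows (11.6%) held the AP-2 letters, against 6.4% of all 382006 regions. The share was 16.7% for Tfap2c (10 of 60), 14.8% for Tfap2a (8 of 54), 27.3% for Tfap2e (3 of 11), 7.89% for Tfap2b (6 of 76) and 4.08% for Tfap2d (2 of 49). GC content moved with it, with a median of 55.0% in Tfap2c windows, 50.2% in Tfap2a, 57.7% in Tfap2e and 44.8% in both Tfap2b and Tfap2d, against 47.3% over all regions. Its part in the shares was not tested. Among regions called in all 6 libraries, 12.2% of the family and 10.8% of the whole held the letters, and the respective median GC was 55.2% and 51.2%. Among those over 1 kb from a start site the shares were 13.9% (5 of 36) and 7.57%, with a median GC of 55.0% and 48.8%. The homeobox core stood in 8.4% of family windows against 5.11% of all, with the highest shares at Tfap2d (12.2%) and Tfap2b (11.8%). E-box letters stood in 15.6% against 20.7%, SOX in 7.6% against 10.3%, forkhead in 5.2% against 3.12%, TEAD in 13.6% against 13.9% and AP-1 in 8.0% against 6.89%. These shares are descriptions, as the regions of a gene are not independent.

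At 4 members the leading promoter region was open in most or all libraries, though not every start site was. The Tfap2c region at chr2:172549355-172549704, over the first start site, had a −log10 q of 7.63 and 13.7 in the libraries labelled maxillary process, 19.6 and 12.2 in mandibular process and 12.9 and 19.8 in nose. The leading Tfap2a promoter region (chr13:40730537-40731832, in an intron 0.6 kb before an internal start site) had 8.54 and 11.8, 13.1 and 8.42, and 12.6 and 13.2. A further Tfap2a region at chr13:40733736-40734283 lay on another start site and ranged from 3.47 in maxillary process replicate 1 to 22.2 in maxillary process replicate 2. The Tfap2e promoter region (chr4:126736095-126736470) was weaker, from 3.28 to 7.97, and called in all 6 libraries. The Tfap2b promoter region (chr1:19208940-19209287) had values of 6.23 to 8.71 in 5 libraries and no peak in maxillary process replicate 1, the shortest list.

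At Tfap2d no region lay on the annotated start site. The best region within 1 kb (chr1:19103469-19103575, 0.5 kb downstream) had a peak in 4 libraries, with −log10 q from 2.69 to 5.16. The region at chr1:19104148-19104959, 1.2 kb downstream over a coding exon of Tfap2d, was called in all 6 libraries with 3.78, 16.3, 10.8, 9.40, 7.57 and 13.6. RefSeq lists 3 start sites for Tfap2d, and only the one furthest downstream had its promoter window on called regions. RefSeq held promoters for 4 of the 5 members, 7 windows in all, on GRCm38.p6. A Tfap2a window (chr13:40734871-40735170) also lay on no called region. The Tfap2b window (chr1:19211804-19212103) lay on weak regions with a peak in 4 libraries, with −log10 q from 1.41 to 3.63. The Tfap2a and Tfap2e windows that lay on a region called in all 6 libraries read as follows, from 250 bases before the start to 50 after it, on the strand of the gene.
Tfap2a promoter, chr13:40733746-40734045, minus strand: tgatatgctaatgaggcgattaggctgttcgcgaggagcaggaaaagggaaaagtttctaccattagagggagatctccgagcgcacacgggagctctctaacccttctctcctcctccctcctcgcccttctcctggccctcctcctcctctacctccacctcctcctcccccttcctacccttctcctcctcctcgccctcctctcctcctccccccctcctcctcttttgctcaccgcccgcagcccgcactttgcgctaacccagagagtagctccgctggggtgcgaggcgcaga
Tfap2e promoter, chr4:126736220-126736519, minus strand: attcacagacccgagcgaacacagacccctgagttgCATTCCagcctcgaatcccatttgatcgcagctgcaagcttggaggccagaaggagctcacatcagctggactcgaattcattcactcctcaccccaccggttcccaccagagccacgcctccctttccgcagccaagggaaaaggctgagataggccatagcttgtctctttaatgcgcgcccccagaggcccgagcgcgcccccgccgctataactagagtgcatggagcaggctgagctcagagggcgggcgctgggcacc

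Neither holds the AP-2 letters, which stood in 16.6% of the 32851 RefSeq promoters. The capitals in the Tfap2e window are TEAD letters on the opposite strand, which 14.7% of promoters held. These letters lie outside the called region.

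Away from the promoters, the highest ranks went to a few regions per gene. The Tfap2b region 29.4 kb downstream (chr1:19241388-19241731), past the end of the gene, was the highest of the family, with a mean rank in the top 5.48% of a list. Its −log10 q was 23.0 and 37.0 in the libraries labelled maxillary process, 25.6 and 24.4 in mandibular process and 25.5 and 20.9 in nose, with a fold over background of 7.57 to 10.9. All labels overlapped. The Tfap2a region 5.9 kb downstream followed with 22.4, 26.8, 31.6, 22.0, 25.3 and 22.2 and a mean rank in the top 5.93%. Tfap2c +110.1 kb (chr2:172660919-172661460) had 16.4, 23.5, 17.8, 28.2, 14.5 and 13.1. Both nose values were the lowest there. Tfap2e +28.8 kb (chr4:126706711-126707756) has its summit in an intron of Psmb2, a proteasome subunit gene, and overlaps a coding exon of Psmb2. The summit lies near the midpoint of the 58.6 kb between the start sites of Tfap2e and Psmb2, so its assignment to Tfap2e was close. The region had 12.2, 13.8, 13.7, 13.8, 22.5 and 22.6, so that both nose libraries lay above all 4 jaw libraries. Tfap2d +6.9 kb (chr1:19109753-19109968, intronic) had 11.6, 23.1, 13.6, 13.3, 13.7 and 14.7, with the maxillary values on either side of the rest.

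The next regions by rank were called in all 6 libraries too, other than Tfap2e +1.8 kb. At Tfap2a they lay 10.9 kb upstream (4.96 to 13.9) and 122.4 kb downstream (4.98 to 13.6). At Tfap2b they lay 125.4 kb downstream (7.22 to 19.2) and 29.7 kb upstream (2.92 to 16.1). At Tfap2c a pair of regions stood 188.8 and 188.1 kb downstream, with 4.42 to 14.8 and 3.40 to 13.7. At Tfap2d they lay 14.7 kb (7.20 to 18.0) and 46.5 kb (8.34 to 14.9) upstream. At Tfap2e they lay 5.4 kb upstream (4.23 to 20.8) and 1.8 kb downstream (2.39 to 4.75 in 5 libraries).

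**Figure D2:**
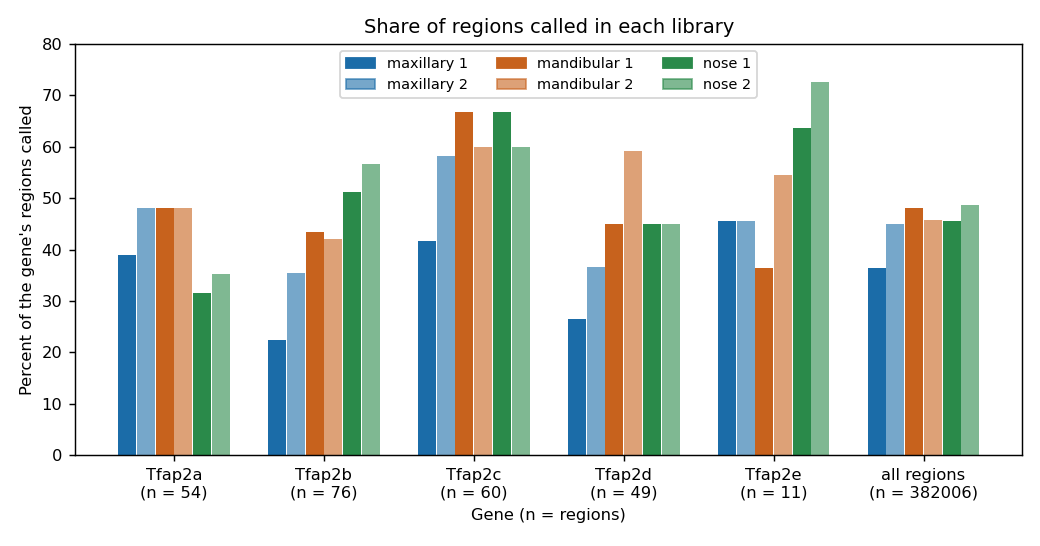
Bars give the percent of a gene's regions that were called in each library (colour for the label, pale for replicate 2), with all 382006 regions at the right. The nose libraries are the lowest at Tfap2a (31.5% and 35.2%) and the highest at Tfap2b (51.3% and 56.6%).

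Regions of the family made up 5.81 and 6.46 per 10000 called regions in the libraries labelled maxillary process, 6.81 and 7.37 in mandibular process and 7.19 and 6.89 in nose. The means were 6.13 ± 0.458, 7.09 ± 0.396 and 7.04 ± 0.206 (SD, n = 2 each). Values of maxillary process lay below all others. An exact permutation test over the 15 ways to form pairs of libraries, on the closeness within pairs, gave a one-sided p of 0.2, where the smallest possible is 0.0667. The p depended on the lists. With all lists shortened to equal length the shares were 5.79 and 5.85 per 10000 in maxillary process, 7.87 and 7.25 in mandibular process and 6.91 and 6.44 in nose, and the exact permutation test gave the smallest possible p of 0.0667. A limit of 100 kb gave 0.6, and peaks of −log10 q 5 or more gave 1.0.

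Regions shared by all libraries differed between members. Of the 250 regions, 41 (16.4%) were called in all 6 libraries, against a background of 18.3% of all regions, and 105 (42.0%) in a single library, against 44.4%. Tfap2c had 15 of 60 (25.0%) in all libraries and 14 (23.3%) in 1 library. Tfap2a had 8 of 54 (14.8%) and 26 (48.1%), Tfap2b 8 of 76 (10.5%) and 35 (46.1%), Tfap2d 7 of 49 (14.3%) and 26 (53.1%), and Tfap2e 3 of 11 and 4. Tfap2c thus held the largest number of shared regions of the 5.

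Tfap2a and Tfap2b leaned to opposite sides when jaws and nose were compared. Tfap2a had 21, 26, 26 and 26 regions called in the jaw libraries and 17 and 19 in the nose libraries, with no overlap. Tfap2b had 17, 27, 33 and 32 in the jaw libraries and 39 and 43 in nose, again with no overlap but in the other direction. Over all regions, the 6 libraries called 36.5%, 45.0%, 48.1%, 45.8%, 45.5% and 48.6%. No test was made on these counts.

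Both family regions called in all 4 jaw libraries and in no nose library were at Tfap2a. They made up 2 of 250 (0.8%), where the background for this pattern was 0.957% of all regions. They lie 143.8 kb (chr13:40584801-40585641) and 162.8 kb (chr13:40566031-40566451) downstream, in introns of Gm47039. The first had a −log10 q of 3.91 and 6.70 in the libraries labelled maxillary process and 19.5 and 13.4 in mandibular process, with a fold of 4.83 to 11.0. The other had 6.06 and 13.8 in maxillary process and 7.24 and 5.23 in mandibular process, with a fold of 5.24 to 8.29. Jaw libraries of the label mandibular process were the higher at the first region, and the labels overlapped at the other. With a limit of 100 kb the count was 0. Their summit windows are shown as the only family regions of this pattern.
Tfap2a +143.8 kb, chr13:40585045-40585245: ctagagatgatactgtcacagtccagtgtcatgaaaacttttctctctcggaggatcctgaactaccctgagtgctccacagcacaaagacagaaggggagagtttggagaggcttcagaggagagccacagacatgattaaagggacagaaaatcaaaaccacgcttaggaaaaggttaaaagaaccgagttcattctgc
Tfap2a +162.8 kb, chr13:40566063-40566263: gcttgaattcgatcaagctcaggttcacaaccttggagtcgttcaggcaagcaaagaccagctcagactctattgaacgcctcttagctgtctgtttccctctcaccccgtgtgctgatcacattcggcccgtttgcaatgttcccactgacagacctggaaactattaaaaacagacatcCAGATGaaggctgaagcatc

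The first window matches none of the 7 motifs, and the other holds an E-box. Against nose, both libraries of maxillary process had 9 regions of the family that neither nose library had (3.6%, background 3.72%), of which 6 were at Tfap2a (11.1% of its regions) and 1 at Tfap2b. The reverse pattern held 14 regions (5.6%, background 5.72%), of which 0 were at Tfap2a and 7 at Tfap2b (9.21%). Mandibular process against nose gave 8 regions (3.2%, background 5.11%), with 3 at Tfap2a, 1 at Tfap2b and 4 at Tfap2c, and 11 the other way (4.4%, background 5.21%), with 0, 6 and 2. The family as a whole was near or under the background in each of these, while Tfap2a and Tfap2b went apart. The Tfap2b side depended on list length: with all lists shortened to the length of the shortest, Tfap2b had 3 regions each way between maxillary process and nose and 4 each way between mandibular process and nose, while Tfap2a had 6 against 1 and 2 against 0. The Tfap2a side changed when a nose library was left out, but 1 nose library then suffices for the nose side. Without nose replicate 1, family counts rose from 11 to 38 for nose over mandibular process and from 8 to 19 the other way. Tfap2a then had 5 regions of mandibular process against 6 of nose, and 3 of all jaw libraries against 5 of nose. Without nose replicate 2 the last became 2 against 3. Between maxillary process and nose the 6 against 0 became 7 against 6 and 6 against 5 without these nose libraries in turn. These turns cannot be told from the looser rule for nose.

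Counts of marker lists stood beside these. The nasal and olfactory epithelium list (Pax6, Six3 and Sox2) had 14 of 218 regions called in nose and not in maxillary process (6.42%, near the background of 5.72%) and 5 the other way (2.29%, background 3.72%). The surface epithelium list (Epcam, Cdh1 and Trp63) had 12 of 119 (10.1%) and 7 (5.88%), both above the background. Trp63 alone held 98 of these regions, 11 of the 12 and 6 of the 7, while Epcam had 1 and 0 and Cdh1 0 and 1. Facial mesenchyme (Prrx1 and Twist1) leaned to the jaws, with 5 of 105 (4.76%) and 8 (7.62%). Against mandibular process it had 3 in nose (2.86%) and 13 in mandibular process (12.4%, background 5.11%), 9 of them at Twist1. In that comparison the nasal list had 14 in nose (6.42%, background 5.21%) and 9 in mandibular process (4.13%). Surface epithelium had 10 (8.4%) and 4 (3.36%). Their part in the Tfap2a and Tfap2b counts was not tested.

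Regions called in both libraries of a single label and in none of the other 4 were few and weak. There were 6 for the label maxillary process (2.4%, background 1.91%), 3 for mandibular process (1.2%, background 2.82%) and 8 for nose (3.2%, background 3.18%). Those of maxillary process were 3 at Tfap2a, 90.9, 91.2 and 108.5 kb downstream, and 1 each at Tfap2b (+1.0 kb), Tfap2c (+124.3 kb) and Tfap2d (+52.6 kb). Their highest −log10 q was 7.64, at Tfap2c in replicate 2. Those of mandibular process lay at Tfap2a +79.1 kb, Tfap2b +124.4 kb and Tfap2c +9.7 kb, with values of 1.63 to 4.16. Of the 8 of nose, 5 were at Tfap2b, at +6.6, +28.2, +48.5, +57.2 and +109.2 kb, and 1 each at Tfap2c (+103.1 kb), Tfap2d (−140.9 kb) and Tfap2e (−5.6 kb). The strongest of the nose regions was Tfap2b +109.2 kb (chr1:19321165-19321276), with 4.01 and 4.36. It is shown for that reason, with AP-1 letters in capitals, which lie past the end of the called region.
Tfap2b +109.2 kb, chr1:19321136-19321336: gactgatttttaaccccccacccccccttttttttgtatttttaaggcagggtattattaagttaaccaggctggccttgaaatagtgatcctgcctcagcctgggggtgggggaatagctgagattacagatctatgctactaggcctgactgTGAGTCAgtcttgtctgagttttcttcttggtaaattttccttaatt

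Between the jaws, 7 regions of the family had a peak in both maxillary-labelled libraries and in no mandibular-labelled one (2.8%, background 3.52%), and 13 the other way (5.2%, background 5.4%). Tfap2b had 1 and 6, Tfap2c 1 and 5, Tfap2a 3 and 1, Tfap2d 2 and 1, and Tfap2e 0 and 0. These directions rest on the labels of the jaw lists and would turn if the labels were exchanged.

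**Figure D3:**
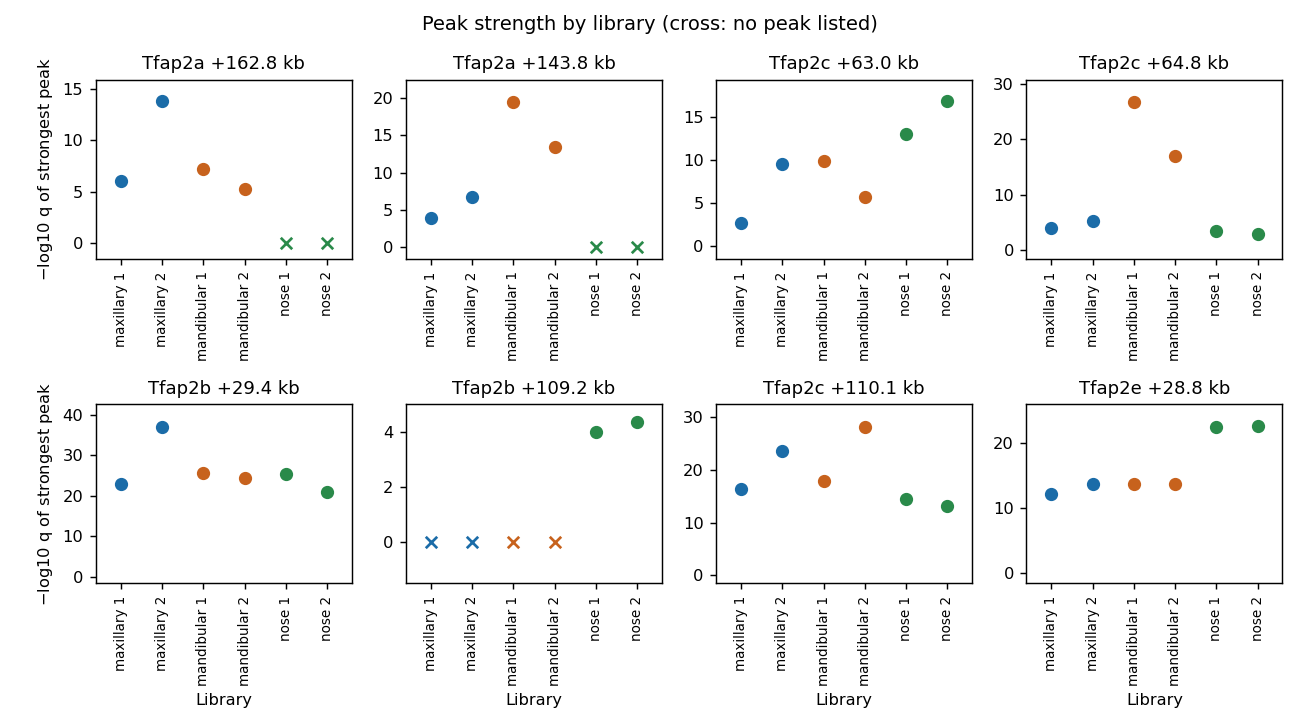
Points give the −log10 q of the strongest peak in each library (crosses: no peak listed) for 8 regions, coloured by label. Tfap2c +64.8 kb is highest in the libraries labelled mandibular process (26.7 and 16.9), and its neighbour Tfap2c +63.0 kb is highest in nose (13.0 and 16.8).

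Where a region had a peak in every library, its strength was compared. The strongest −log10 p of each of the 69940 such regions was taken in each library. These values were ranked within the library, among these regions only. The ranks were turned into normal scores, in units of the standard deviation over these regions, so that lists of unequal scale could be set side by side. To these scores limma was fitted, with Benjamini-Hochberg adjustment. In the family, 2 regions passed the threshold of 0.05, both at Tfap2c. Tfap2c +64.8 kb (chr2:172615483-172615959, intergenic) had a −log10 q of 4.03 and 5.26 in the libraries labelled maxillary process, 26.7 and 16.9 in mandibular process and 3.39 and 2.89 in nose, with a fold over background of at least 8.82 in mandibular process and at most 4.82 elsewhere. Mandibular process stood clear of the other labels. Its normal score was lower in maxillary than in mandibular process by a difference of −1.68 ± 0.41 (SE; limma, adjusted p = 0.032) and higher in mandibular process than in nose by 1.97 ± 0.41 (limma, adjusted p = 0.00907).

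Tfap2c +63.0 kb (chr2:172613716-172614502, intergenic) lies 980 bp from that region. Its −log10 q was 2.59 and 9.50 in maxillary process, 9.90 and 5.72 in mandibular process and 13.0 and 16.8 in nose. Nose was the highest label, and the jaws overlapped. The difference of maxillary process from nose was −1.37 ± 0.36 (limma, adjusted p = 0.0481). Both jaws against nose gave −1.09 ± 0.31 (limma, adjusted p = 0.0587), and mandibular process against nose −0.81 ± 0.36 (limma, adjusted p = 0.247). Neighbouring summits 1774 bp apart thus ranked highest under different labels. The difference between the 2 regions was not tested.
Tfap2c +63.0 kb, chr2:172613903-172614103: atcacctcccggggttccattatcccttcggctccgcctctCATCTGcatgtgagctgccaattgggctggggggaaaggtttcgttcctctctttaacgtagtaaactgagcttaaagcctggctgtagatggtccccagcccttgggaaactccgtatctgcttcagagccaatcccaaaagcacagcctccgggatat
Tfap2c +64.8 kb, chr2:172615677-172615877: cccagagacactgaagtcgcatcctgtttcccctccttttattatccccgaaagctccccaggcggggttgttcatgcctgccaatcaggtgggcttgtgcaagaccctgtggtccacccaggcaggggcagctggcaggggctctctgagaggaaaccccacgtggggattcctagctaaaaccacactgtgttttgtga

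These 2 windows are shown because they carry the tested differences. The window at +63.0 kb holds an E-box and the one at +64.8 kb none of the 7 motifs. With the mean trend of the variance left out of the fit, no region of the 69940 passed in any comparison (10222 to 11398 had an unadjusted p below 0.05), and the 3 Tfap2c differences were the same while their adjusted p became 0.117, 0.076 and 0.149. The calls also rested on single libraries: limma's adjusted p for Tfap2c +64.8 kb between the jaws rose to between 0.0568 and 0.336 without any 1 of the 4 jaw libraries, and that for mandibular process against nose to 0.184 when replicate 1 of mandibular process was left out, 0.0725 when replicate 2 was, and 0.0557 without replicate 2 of nose. For Tfap2c +63.0 kb it lay between 0.0519 and 0.288 without any library but maxillary process replicate 2, whose omission gave 0.0418. The differences kept their direction when a library was left out. They lay between −1.9 and −1.28 for Tfap2c +64.8 kb between the jaws, between 1.73 and 2.14 for mandibular process against nose, and between −1.7 and −0.92 for Tfap2c +63.0 kb.

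Of the 41 family regions tested, 1 passed between the jaws (2.1% of all tested regions did), 1 between maxillary process and nose (2.18%) and 1 between mandibular process and nose (3.7%). For both jaws against nose, limma passed 0 of 41 (3.23% of all), with 2 regions higher and 5 lower at an unadjusted p below 0.05. The median difference over the 41 was −0.11 between the jaws, −0.14 for maxillary process against nose, −0.11 for mandibular process against nose and −0.14 for both jaws, beside medians over all regions of 0.0, −0.01, 0.0 and −0.01. Values short of the threshold went both ways. For mandibular process against nose they included Tfap2e −5.4 kb (−0.97 ± 0.30, limma, adjusted p = 0.0753) and Tfap2a +30.9 kb (−1.49 ± 0.50, limma, adjusted p = 0.0978). Replicates lay apart there. At Tfap2e −5.4 kb the −log10 q was 13.3 and 4.23 in mandibular process and 14.1 and 20.3 in nose. At Tfap2a +30.9 kb it was 2.61 and 2.37 in mandibular process and 14.1 and 4.36 in nose. For both jaws against nose the values short of the threshold included Tfap2c +64.8 kb, higher in the jaws (1.13 ± 0.36, limma, adjusted p = 0.0847), and Tfap2e +28.8 kb (−0.60 ± 0.20, limma, adjusted p = 0.103).

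**Figure D4:**
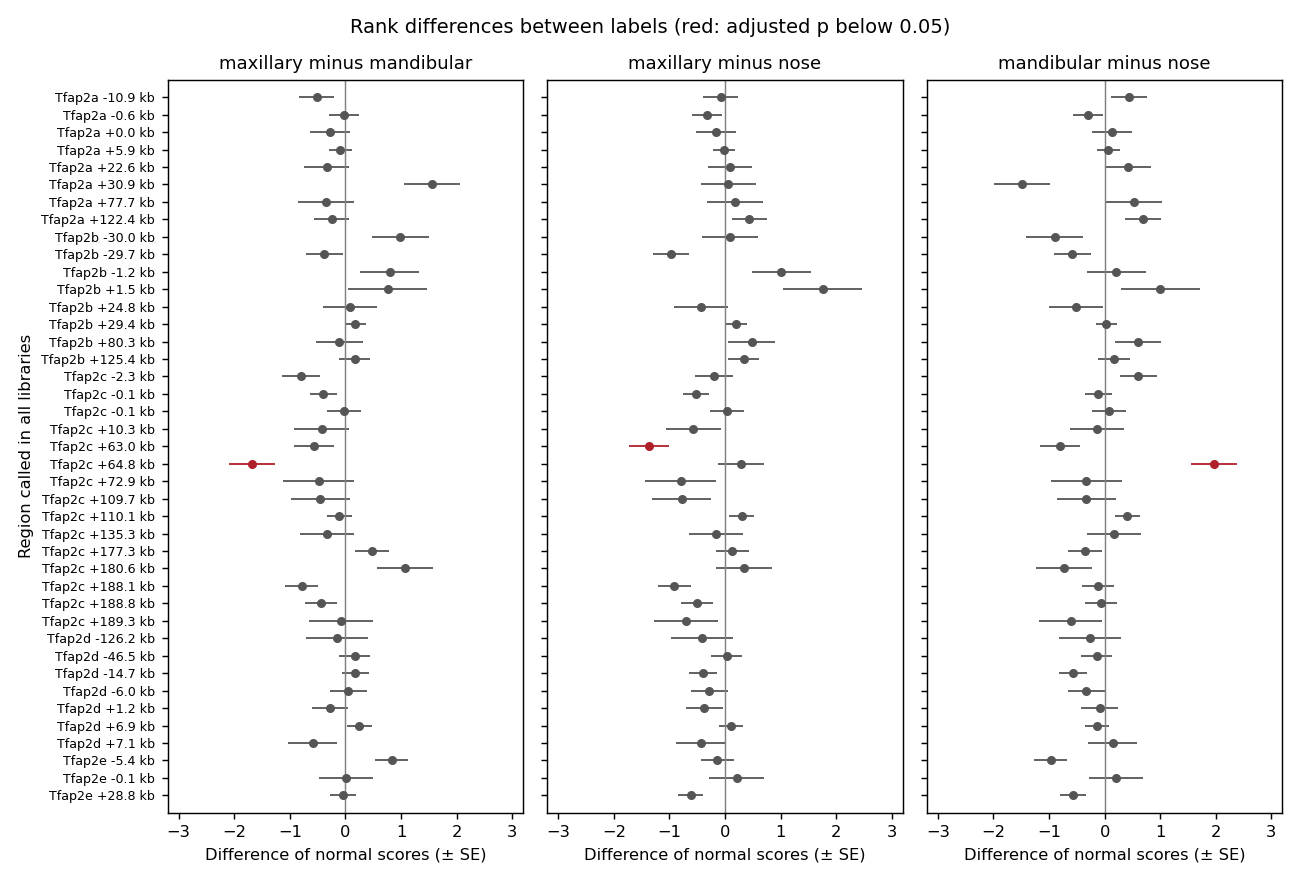
Differences of normal scores between labels (points, with the standard error as bars) for the 41 regions called in all 6 libraries, ordered by gene and distance from the start site. Red points passed an adjusted p of 0.05: Tfap2c +64.8 kb between the jaws (−1.68) and for mandibular process against nose (1.97), and Tfap2c +63.0 kb for maxillary process against nose (−1.37).

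Genes that work with AP-2 were taken from 2 lists. The cofactors and inhibitors were Cited1, Cited2, Cited4, Ep300 and Crebbp, which couple AP-2 to histone acetylation, and Kctd1 and Kctd15, which inhibit it. They had 263 regions, of which 59 were tested. The calls made up 1.69% in each comparison of a pair of labels and 3.39% for both jaws against nose, where all tested regions had 2.1% between the jaws, 2.18% and 3.7% for maxillary and mandibular process against nose, and 3.23% for both jaws. Between the jaws 1 region was higher in maxillary process, 91.2 kb from a start site of Cited2 (1.46 ± 0.36, limma, adjusted p = 0.036). Kctd1 had the other calls, all lower in the jaws: 1 region for maxillary process against nose (−2.03 ± 0.43, limma, adjusted p = 0.0147), 1 for mandibular process against nose (−0.70 ± 0.19, limma, adjusted p = 0.0397) and 2 for both jaws against nose. All 7 genes had a promoter peak in every library.

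The network list held Trp63, Grhl2, Grhl3, Epcam and Cdh1 of the surface ectoderm, Foxd3, Sox10 and Kit of neural crest derivatives, and Msx1, Dlx5 and Alx4 of facial mesenchyme. Of 401 regions, 64 were tested. Between the jaws 2 were higher and 1 lower in maxillary process, and against nose maxillary process again had 2 higher and 1 lower (4.69% in both, beside 2.1% and 2.18% of all tested regions). Both jaws against nose gave 1 higher (1.56%, beside 3.23%), and for mandibular process against nose limma called 0 (3.7% of all), with 9 at an unadjusted p below 0.05. Trp63, a master regulator of stratified epithelium, had calls in both directions: its region 24.3 kb from a start site was lower in maxillary process than in mandibular process (−1.56 ± 0.32, limma, adjusted p = 0.0132), and the one at 38.0 kb was higher (2.10 ± 0.52, limma, adjusted p = 0.0343). Kit had 1 region higher in maxillary than in mandibular process (2.13 ± 0.45, limma, adjusted p = 0.0139). Alx4 had 1 region higher in maxillary process than in nose (1.18 ± 0.21, limma, adjusted p = 0.00565). Sox10, a marker of neural crest glia, had 7 regions, none called in all libraries, and a promoter peak in 1 library.

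Genes whose regions were called in the most similar pattern were sought over 4745 genes with at least 20 regions, by the Euclidean distance of the 6 percentages called. For Tfap2a they were Csl (4.58 percentage points), Rhobtb1 (6.67) and Stt3b (6.97), against a median of 28.7 over all genes. For Tfap2b they were Cenpe (7.09), Setmar (7.41) and Tnfrsf11b (8.26), against 29.3. For Tfap2c they were Afdn (7.45), Tgif1 (8.59) and Ddx11 (9.79), against 41.6. The points of this measure share the same 6 libraries and their list lengths.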

How the data were processed

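Bulk ATAC-seq was made from 6 libraries of wild-type mouse face at E11.5. Per the labels, nuclei were cut with Tn5 and read from 1 end over 50 bp. Bowtie2, SAMtools and mm10 are named, without versions, in the processing notes of the submitters. The peak caller is not given in the sources used here. The authors deposited a list of peaks per library, called on that library alone, giving per summit a fold over local background (a ratio) and the −log10 of p and of q. No reads were used, so depth is unknown and no floor can be given.

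Python 3.11.15 with numpy 2.4.6, pandas 2.3.3 and matplotlib 3.10.9 was used. Start sites were those of 45065 protein-coding transcripts in the GENCODE M21 basic annotation. A region within 1 kb of one counted as a promoter. Presence or absence was counted for each contrast of labels, beside the same percent over all regions. Strength was tested with limma 3.58.1 in R 4.3.3 on normal scores of ranks, with a variance trend, all 6 libraries in one fit and no block, and was first tested on simulated data. Fold was used only as an alternative strength and as a description. Motifs were searched 100 bp to each side of the strongest summit, so a match can lie outside a narrow region.

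Libraries were grouped by their labels. Named were the 5 members, the leading promoter region of each, its 3 highest-ranked distal regions, regions found under a single label, regions past the limma threshold, the regions at the distance limit, the 3 most similar genes of Tfap2a, Tfap2b and Tfap2c, and up to 5 pathway genes with a called region. Members and lists were chosen with earlier results of these data known. Some genes of the lists and 1 sequence are not reported here, and counts over the lists leave those genes out. Alternatives were stricter q values, equal list lengths, a larger overlap, a limit of 100 kb, leaving out each library, fold as strength, no trend and a replicate block. Of the lists of markers, lower jaw had 7 and 6 of 140 regions on the maxillary and mandibular side between the jaws. Upper jaw (Pou3f3) had 4 and 4 of 73, endothelium (Kdr and Cdh5) 6 and 8 of 110, and blood (Gata1 and Ptprc) 1 and 3 of 54. The background was 3.52% and 5.4%.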

Additional observations from a re-analysis of the deposited data

How the results depend on the processing

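The limits come first. Depth in reads is unknown, the lists begin at different q values, and presence counts follow list length. With 2 libraries per label, leaving 1 out makes any pattern easier to meet, so that counts rise by construction. The sides of a comparison need not rise alike, so a balance that turns cannot be told from this effect. In the fit the lone library is assumed to vary like the others. No family share can be tested with 5 libraries.

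With a −log10 q of at least 3, 26 family regions were called in all 6 libraries, 1 in maxillary process only, 2 against 6 between maxillary and mandibular process, and 4 against 9 between maxillary process and nose. With at least 5 the values were 12, 1 and, for mandibular process only, 1, then 2 against 4 and 2 against 4, and 3 for nose over mandibular process, 1 for all jaw libraries and 3 for nose only. There Tfap2b turned in 2 comparisons, to an excess of 1 in maxillary over mandibular process (1 against 0) and of 1 in mandibular process over nose (2 against 1). Lists of equal length gave 5 regions of mandibular process only, 9 of nose over maxillary process and 4 of nose only. Peaks that had to cover 50% or 200 bp gave 26 in all libraries, 5 of mandibular process only and 4 of all jaw libraries. A limit of 100 kb gave 8 of mandibular over maxillary process, 5 of maxillary process over nose, 3 and 7 between mandibular process and nose, 0 of all jaw libraries and 5 of nose only.

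The strength calls of the family were 0 in the comparisons between the jaws, of maxillary process with nose and of mandibular process with nose under both stricter q values, the larger overlap and no trend (in limma, with 0 to 6 at an unadjusted p below 0.05), and 0 for maxillary process with nose under equal lengths and under fold. Under the stricter q values neither Tfap2c region had a peak in every library, and under the larger overlap Tfap2c +64.8 kb had not, so that they were not tested there. Deviations of the first replicates correlated at 0.0336 to 0.0372 between labels, low but all positive. Whether equal replicate numbers share a batch was not tested. With a replicate block, limma called 1 family region in each comparison, including 1 for both jaws against nose, and no other family call changed. Over all tested regions the calls rose with the block, from 1466 to 1886 between the jaws and from 2261 to 2789 for both jaws against nose.

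Leaving out each library in turn gave 224 to 244 family regions, with 41 to 55 called in all libraries. It gave 6 to 15 of maxillary process only, 4 to 32 of mandibular process only and 9 to 33 of nose only. It gave 7 to 20 of maxillary over mandibular process and 13 to 49 the other way, 9 to 23 and 14 to 49 between maxillary process and nose, 8 to 38 and 11 to 38 between mandibular process and nose, and 2 to 7 of all jaw libraries. The family regions that passed limma with a library left out were not always the Tfap2c regions of the full fit. The balance of Tfap2a ranged from −6 to 5 between the jaws, turning without either mandibular process library, from −1 to 11 for mandibular process against nose and from −2 to 3 for all jaw libraries, turning without nose replicate 1 in both and without nose replicate 2 in the last. That of Tfap2c ranged from −9 to 2 and from −5 to 1 against nose for maxillary process and all jaw libraries, turning without maxillary process replicate 1, and from −1 to 4 for mandibular process, turning without nose replicate 2. Tfap2a stayed above 0 for maxillary process against nose (1 to 10), and Tfap2b below 0 against nose (−18 to −5 for maxillary process, −14 to −1 for mandibular process). The cause of these changes was not tested.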
